A study of Homo sapiens with 6 samples.

Results

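The genes described here are 40 secreted non-collagen proteins of the extracellular matrix and the enzymes that crosslink it, taken by name from a table of 60612 genes. The list was chosen by function, with earlier results of these data known. It holds 9 adhesive and matricellular glycoproteins, 14 proteins of microfibrils and elastic fibres, 2 nidogens of the basement membrane, 7 proteoglycans and hyaluronan link proteins, and 8 crosslinking enzymes. All 40 were found in the table. RNA was sequenced from U87, an established human glioblastoma cell line, in 3 libraries that received a Scramble shRNA by lentivirus (NC) and 3 that received a PRMT6 shRNA by lentivirus (shPRMT6). Both groups grew in DMEM with fetal bovine serum, and the controls carry virus too. The study's methods describe puromycin selection of stable cells for the PRMT6 shRNA virus and do not name the control virus there. Whether the sequenced controls were selected in the same way is thus not stated. PRMT6 is an arginine methyltransferase that modifies histones and other proteins. The study compared both groups to learn which RNAs differ when PRMT6 is silenced. The labels number the shPRMT6 libraries shRNA-1 to shRNA-3 without saying whether they carry the same hairpin. The study's supplement lists 3 PRMT6 hairpins, numbered 1 to 3, and the methods call the samples independent replicates. Whether these libraries are replicates of 1 hairpin or carry 3 different ones is thus not known here.

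The extracellular matrix is a mesh of secreted proteins that cells bind through surface receptors. Fibronectin forms adhesive fibres, tenascin-C modulates adhesion, and fibrillins build microfibrils that hold latent TGF-beta through the LTBP proteins. Lysyl oxidases and transglutaminases join the strands to each other, and lysyl hydroxylases prepare collagen lysines for crosslinking. Normal brain matrix is rich in hyaluronan and lecticans such as brevican and versican, and glioblastoma is known for adding fibronectin, tenascin-C and other proteins that are otherwise found around vessels or in wounds.

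The targeted gene was lower in the libraries labelled shPRMT6. PRMT6 had 9.33, 7.97 and 7.19 CPM (counts scaled to the library sizes of the fit) in NC and 3.57, 4.58 and 5.24 in shPRMT6. The groups did not overlap, and the log2 fold change was -0.87 ± 0.19 (SE, edgeR adjusted p = 0.0225). The call was lost without NC replicate 1, shPRMT6 replicate 1 or shPRMT6 replicate 2 (edgeR adjusted p = 0.0613, 0.0588 and 0.0713). It was also lost in the unfiltered limma fit on FPKM (adjusted p = 0.0578) and with a replicate block (edgeR adjusted p = 0.0803). An exact two-sided permutation test of the same values gave p = 0.1, the smallest that 3 against 3 allows. Total counts ran from 56388161 to 75887696 per library. Of the glial and neural markers, S100B and AQP4 had no count in any library, and GFAP and SOX2 stayed under 1 CPM. OLIG2 averaged 2.55 CPM in NC and 2.83 in shPRMT6. NES averaged 40.9 and 45.4 CPM, with groups that did not overlap, and neither gene passed. VIM, an intermediate filament gene listed here as mesenchymal, averaged 7988 CPM in NC and 7425 in shPRMT6 and did not pass. Of the other mesenchymal markers, CD44 averaged 568 CPM in NC and 524 in shPRMT6. PDGFRB averaged 24.5 and 19.8, with groups that did not overlap, and neither gene passed. THY1 had no count in NC and 4 counts in 1 shPRMT6 library and was not tested. Of the immune markers, AIF1 had no count, PTPRC had none in NC and at most 4 in shPRMT6, and CD68, a lysosomal protein gene used as a macrophage marker, was at 148 to 256 CPM in NC and 144 to 316 in shPRMT6 and did not pass. The epithelial CDH1, at 0.642 CPM in NC and 0.140 in shPRMT6, was the only marker listed that passed (log2 fold change -2.18, edgeR adjusted p = 0.0428). KRT18 averaged 8.11 and 2.72 CPM and the endothelial PECAM1 2.89 and 4.70, with groups apart, and neither passed. The other epithelial and endothelial markers, those of oligodendrocytes, and CDKN2A, CDKN2B and MTAP did not pass or were not tested.

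Of the 40 genes, 32 passed the filter on low counts and were tested. At an edgeR adjusted p under 0.05, 11 of the 32 changed, which is 34.4%, beside 18.6% of all 18106 genes tested. Because the list was made with earlier results known, these shares are a description and no test of matrix genes as a class. TGM2, LTBP1, SPARC, LUM, FBN1 and SRPX2 rose in shPRMT6, and FSTL1, FN1, LOXL2, TNC and PLOD1 fell. Of all genes tested, 9.51% rose and 9.06% fell. Abundant genes pass more often. Among the 24 members with a mean of at least 10 CPM, a limit chosen after seeing the data, 10 changed (41.7%), beside 27.1% of all genes at that level. Under the study's own limits, an absolute log2 fold change above 1 with an unadjusted p under 0.05, 3 of the 32 passed (TGM2, LTBP1 and FSTL1), beside 5.92% of all genes. The median log2 fold change of the 32 was 0.05, beside -0.01 over all genes. CPM values did not overlap between the groups for 17 of the 32, and for 40.2% of all genes tested. The 17 are the 11 that changed and NID2, LTBP3, EFEMP1, LOXL1, LOXL4 and PLOD2, which did not pass.

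**Figure D1:**
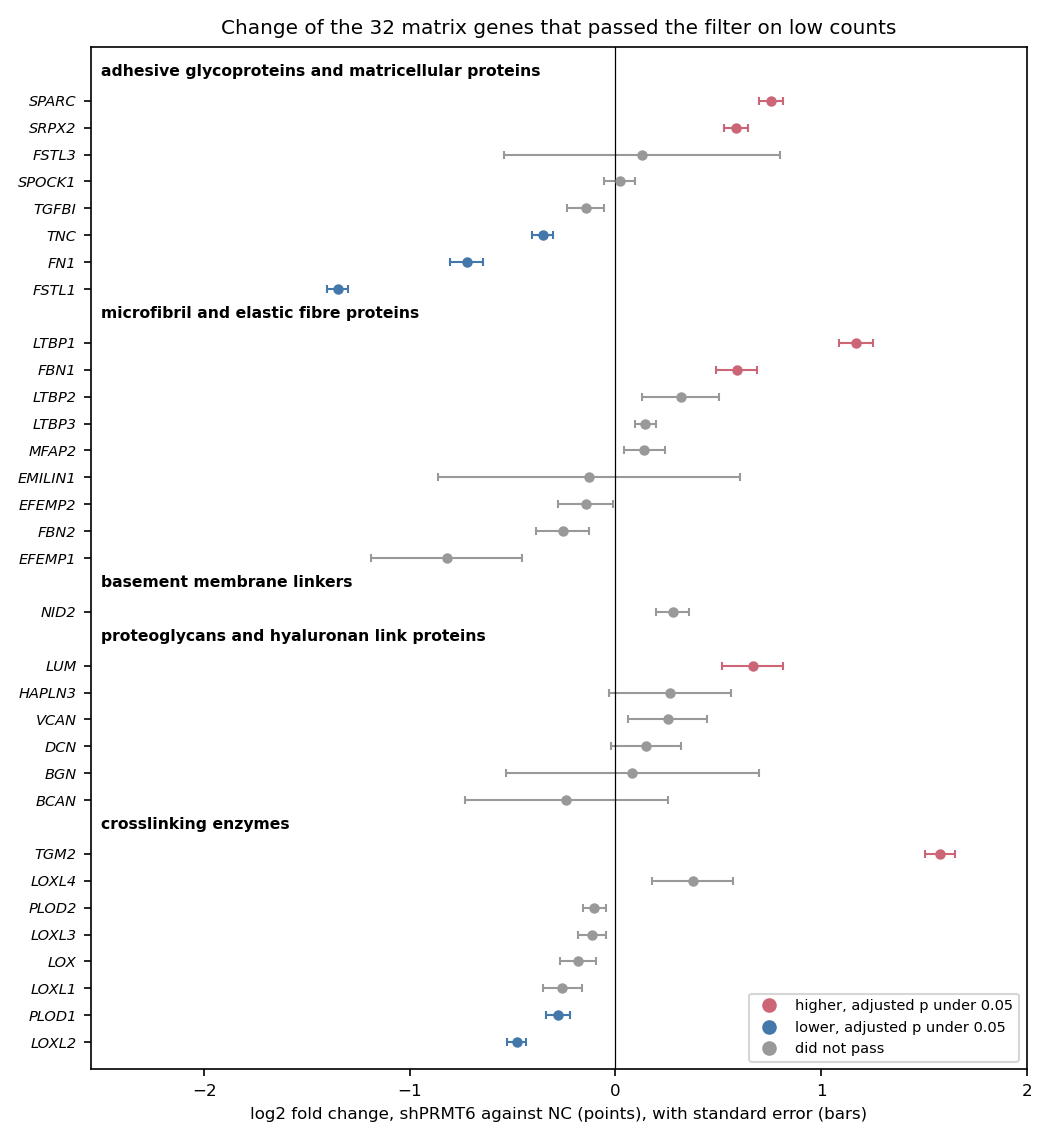
Log2 fold change of shPRMT6 against NC (horizontal axis) for the 32 tested genes, grouped by role, with standard errors as bars and colours for the outcome of the edgeR test (n = 3 libraries per group). Changes run from -1.35 for FSTL1 to 1.58 for TGM2, and each role with more than 2 tested genes holds points on both sides of 0.

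Gene starts give a first view of the members that moved. RefSeq promoter windows (250 bases before to 50 after the start, GRCh38.p14, 5′ to 3′ on the gene's strand) were held for 31 of the 40 genes, not for TGM2, LUM or LOXL2. The windows of the 2 matched members that fell most and the 2 that rose most are shown, with capitals for the letters of the motifs named after them. The windows lie at chr3:120450943-120451242 (minus strand) for FSTL1, at chr2:215436019-215436318 (minus) for FN1, at chr2:32946703-32947002 (plus) for LTBP1 and at chr5:151686866-151687165 (minus) for SPARC.
FSTL1: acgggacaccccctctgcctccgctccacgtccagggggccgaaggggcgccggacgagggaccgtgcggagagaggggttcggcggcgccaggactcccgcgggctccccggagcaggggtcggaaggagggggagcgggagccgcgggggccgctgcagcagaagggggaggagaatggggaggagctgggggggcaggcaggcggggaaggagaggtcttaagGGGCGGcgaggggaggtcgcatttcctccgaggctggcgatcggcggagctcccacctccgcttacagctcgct
FN1: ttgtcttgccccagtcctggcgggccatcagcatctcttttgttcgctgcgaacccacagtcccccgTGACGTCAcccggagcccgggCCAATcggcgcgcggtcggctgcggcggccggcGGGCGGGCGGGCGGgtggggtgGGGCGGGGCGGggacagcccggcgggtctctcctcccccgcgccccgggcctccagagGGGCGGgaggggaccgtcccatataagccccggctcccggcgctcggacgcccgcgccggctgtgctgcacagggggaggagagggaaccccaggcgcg
LTBP1: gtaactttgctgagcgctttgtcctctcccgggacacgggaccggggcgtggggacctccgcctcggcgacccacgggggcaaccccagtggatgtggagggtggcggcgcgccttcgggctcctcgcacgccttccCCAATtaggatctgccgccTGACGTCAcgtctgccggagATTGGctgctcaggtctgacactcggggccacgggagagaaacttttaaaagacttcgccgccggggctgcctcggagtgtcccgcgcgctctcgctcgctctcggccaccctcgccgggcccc
SPARC: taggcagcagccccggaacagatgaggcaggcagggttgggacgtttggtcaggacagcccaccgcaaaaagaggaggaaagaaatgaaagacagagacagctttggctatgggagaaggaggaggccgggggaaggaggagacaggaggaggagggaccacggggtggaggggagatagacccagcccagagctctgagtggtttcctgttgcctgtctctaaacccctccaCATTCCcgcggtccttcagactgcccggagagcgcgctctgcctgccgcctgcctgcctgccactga

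A set of 7 motifs, picked after the changes were known, was searched as letters on both strands, and none of them contains another. The CRE, searched as TGACGTCA, stood in the windows of 2 members, FN1 (from base 68 of the window) and LTBP1 (from base 157), which moved in opposite directions, beside 1.98% of all 27305 promoters. The GC box, searched as GGGCGG, stood in 21 of the 31 windows (67.7%) and in 44.6% of all promoters. It was present for 4 of the members that fell, FSTL1, FN1, TNC and PLOD1, and for none of the 4 members that rose and had a window. The TEAD letters GGAATG stood in 4 windows (FBN1, LOXL3, SPARC and SRPX2), or 12.9%, beside 14.0% of all promoters. Of these genes FBN1, SPARC and SRPX2 rose, LOXL3 did not pass, and no member that fell had the letters. How often either motif stands at all genes that rose or fell was not counted, and neither split was tested. The AP-1 letters TGANTCA were in 3 windows (9.68%, beside 7.76% of all promoters). The CCAAT box, searched by those letters, was in 8 windows (25.8%, beside 35.7%). The TATA box, searched as TATAAA, was in 2 windows (6.45%, beside 11.95%). The E-box CACGTG was in 1 window (3.23%, beside 7.43%). A match is a run of letters and not a measured binding site.

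Adhesive and matricellular glycoproteins moved in both directions. Of the 8 tested, 3 fell and 2 rose (62.5%, beside 18.6% of all genes tested and 27.1% of those with a mean of at least 10 CPM). FN1 (fibronectin, chromosome 2, 215360440 to 215436172), the main cell-binding glycoprotein of provisional matrix, had 2640, 3253 and 2858 CPM in NC and 1778, 1721 and 1803 in shPRMT6. Every shPRMT6 library lay below every NC library, and the level was 60.6% of NC (log2 fold change -0.72 ± 0.08 SE, edgeR adjusted p = 0.00246). TNC (tenascin-C, chromosome 9, 115019578 to 115118257), a hexameric glycoprotein that modulates adhesion, had 2640, 2905 and 2744 CPM in NC against 2111, 2203 and 2173. The groups were again apart, with a smaller fall to 78.3% of NC (log2 fold change -0.35 ± 0.05 SE, edgeR adjusted p = 0.00585).

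FSTL1 (follistatin-like 1, chromosome 3, 120392293 to 120451253), a secreted glycoprotein related to SPARC, had the largest fall of the 32 genes. It had 372, 388 and 376 CPM in NC and 143, 152 and 150 in shPRMT6. The libraries of each group lay close together, and the level was 39.2% of NC (log2 fold change -1.35 ± 0.05 SE, edgeR adjusted p = 0.000175). SPARC (osteonectin, chromosome 5, 151661096 to 151687165), a collagen-binding matricellular protein, went the other way, with 369, 329 and 345 CPM in NC and 584, 585 and 596 in shPRMT6. Its level was 1.69-fold that of NC (log2 fold change 0.76 ± 0.06 SE, edgeR adjusted p = 0.00088). All 3 shPRMT6 libraries lay above those of NC, so that these relatives, which share follistatin-like domains, moved in opposite directions.

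SRPX2 (chromosome X, 100644166 to 100675788), a secreted sushi-repeat protein, had 66.1, 68.8 and 64.3 CPM in NC and 98.4, 98.8 and 102 in shPRMT6. All shPRMT6 values were higher (log2 fold change 0.59 ± 0.06 SE, edgeR adjusted p = 0.00178). TGFBI, an integrin-binding protein induced by TGF-beta, averaged 984 ± 120 CPM in NC and 890 ± 25.6 in shPRMT6 (SD, n = 3 each) and did not pass. SPOCK1, a secreted testican proteoglycan grouped here for its SPARC-like domain, was at 70.6 ± 3.63 and 71.6 ± 4.98 CPM. FSTL3, an activin inhibitor, was at 1.32 CPM in NC replicate 2 and at 10.8 and 9.85 in the other NC libraries, beside 6.35 to 8.98 in shPRMT6. Without that library its log2 fold change turned from 0.13 to -0.37, and neither passed. POSTN (periostin), which binds collagen and integrins, had no count in any library.

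**Figure D2:**
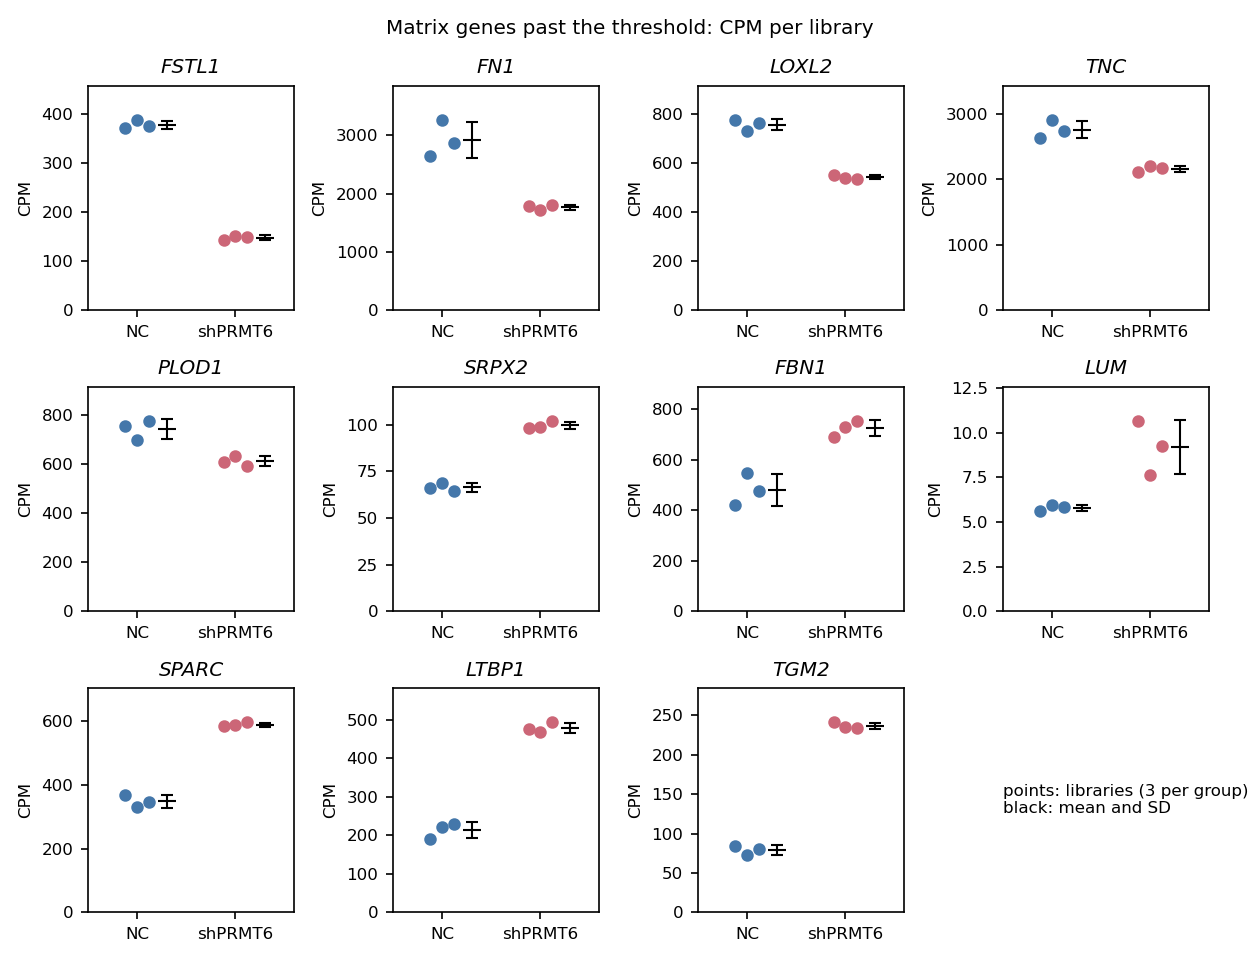
CPM (vertical axes, from 0) in each of the 3 NC and 3 shPRMT6 libraries for the 11 genes past the threshold, with black marks for the mean and SD of each group. The groups do not overlap in any panel, and the 3 shPRMT6 libraries are most spread in LUM, from 7.65 to 10.6 CPM.

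Among microfibril and elastic fibre proteins, 9 of 14 were tested, 2 rose and none fell. This share of 22.2% was near the 18.6% of all genes tested. LTBP1 (chromosome 2, 32946972 to 33399509), which anchors latent TGF-beta to the matrix, had 190, 221 and 229 CPM in NC and 476, 468 and 494 in shPRMT6. Every shPRMT6 value was more than that of any NC library, and the level was 2.25-fold (log2 fold change 1.17 ± 0.08 SE, edgeR adjusted p = 0.00066). FBN1 (fibrillin-1, chromosome 15, 48408306 to 48645849), the main building block of microfibrils, had 421, 546 and 475 CPM in NC and 689, 728 and 751 in shPRMT6. It rose 1.51-fold (log2 fold change 0.59 ± 0.10 SE, edgeR adjusted p = 0.00971).

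The close relatives of both genes did not pass. FBN2 (fibrillin-2), typical of developing tissue, averaged 166 ± 29.6 CPM in NC and 139 ± 5.15 in shPRMT6, with overlapping groups. LTBP3 averaged 241 ± 7.45 and 267 ± 4.99 CPM, a log2 fold change of 0.15 (edgeR adjusted p = 0.0996), and LTBP2, which does not bind latent TGF-beta, 46.4 ± 9.47 and 57.7 ± 10.6. In CPM, the ratio of FBN1 to FBN2 was 3.10, 2.80 and 2.83 in NC and 5.13, 5.26 and 5.20 in shPRMT6. For LTBP1 over LTBP3 the ratio was 0.788, 0.947 and 0.920 in NC and 1.81, 1.72 and 1.87 in shPRMT6. The ratios lay apart between the groups. These pairs were chosen after their values were seen, and no test was made of the ratios.

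MFAP2, a small microfibril protein, averaged 63.3 ± 7.62 and 69.7 ± 2.36 CPM, and EFEMP2 (fibulin-4), which guides lysyl oxidase to elastin, 58.1 ± 7.14 and 52.6 ± 7.41 (NC and shPRMT6, SD, n = 3). EFEMP1 (fibulin-3) and EMILIN1, an elastic fibre glycoprotein, averaged 0.986 and 0.367 CPM in NC and 0.557 and 0.339 in shPRMT6, and neither passed. ELN, the elastin gene itself, had 0 to 5 counts per library. FBLN1 had 0 to 31, FBLN2 no count in NC and 8 to 25 in shPRMT6, FBLN5 0 to 16, and MFAP5 no count in NC and 0 to 8 in shPRMT6. These 5 were under the filter. Without it, FBLN2 passed (edgeR adjusted p = 0.0379), as did 8.85% of the genes of that fit. FBLN2 also passed without NC replicate 2 (edgeR adjusted p = 0.0489). It missed without NC replicate 1, NC replicate 3 or shPRMT6 replicate 2 (edgeR adjusted p = 0.0505, 0.0608 and 0.0667). The unfiltered limma fit on FPKM missed it too (adjusted p = 0.108). FBLN2 entered these fits only through its counts in shPRMT6. Transcripts of microfibrils were thus measured in these cells, while those of elastin and of fibulins 1, 2 and 5 were at or near 0.

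Of the nidogens, which link laminin to type IV collagen in basement membranes, NID1 had no count in NC and 3 to 14 in shPRMT6 and was not tested. NID2 had 42.0, 48.1 and 46.8 CPM in NC and 53.3, 54.6 and 58.4 in shPRMT6. The groups were apart, but the adjusted p missed the threshold (log2 fold change 0.28 ± 0.08 SE, edgeR adjusted p = 0.0561).

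Proteoglycans and link proteins held 1 change among 6 tested (16.7%), near the 18.6% of all genes tested. LUM (lumican, chromosome 12, 91102629 to 91111831), a small leucine-rich proteoglycan of collagen fibrils, had 5.597, 5.931 and 5.831 CPM in NC and 10.6, 7.65 and 9.27 in shPRMT6. It was 1.59-fold higher (log2 fold change 0.67 ± 0.15 SE, edgeR adjusted p = 0.0257), and it lost the call when any library other than shPRMT6 replicate 2 was left out. DCN (decorin), of the same family, averaged 20.4 ± 1.47 and 22.6 ± 5.22 CPM, and BGN (biglycan) 0.208 and 0.219.

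VCAN (versican), the large hyaluronan-binding proteoglycan of this set, averaged 158 ± 43.3 CPM in NC and 189 ± 7.90 in shPRMT6. Its NC values were spread, with 112 in replicate 1 against 197 and 166, and it did not pass. BCAN (brevican), the lectican typical of brain, averaged 0.488 and 0.413 CPM. HAPLN3, a hyaluronan link protein, was at 1.70 and 2.04 CPM, and HAPLN1 had 10 counts in 1 shPRMT6 library and none elsewhere.

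All 8 crosslinking enzymes were tested, of which 1 rose and 2 fell (37.5%, beside 18.6% of all genes tested). Of all genes with a mean of at least 10 CPM, a level that every enzyme here but LOXL4 reached, 27.1% were called. TGM2 (transglutaminase 2, chromosome 20, 38127387 to 38166578), which joins glutamine and lysine side chains of matrix proteins such as fibronectin, had 84.3, 72.6 and 80.8 CPM in NC and 241, 235 and 234 in shPRMT6. The groups were far apart, and the rise to 2.99-fold was the largest among the 32 genes (log2 fold change 1.58 ± 0.07 SE, edgeR adjusted p = 0.000211).

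LOXL2 (chromosome 8, 23297189 to 23425328), a lysyl oxidase that starts collagen and elastin crosslinks, had 776, 734 and 765 CPM in NC and 553, 541 and 537 in shPRMT6. It fell to 71.7% of NC with no overlap (log2 fold change -0.48 ± 0.05 SE, edgeR adjusted p = 0.00178). PLOD1 (chromosome 1, 11934205 to 11975538), a lysyl hydroxylase that prepares collagen lysines for crosslinking, had 753, 697 and 774 CPM in NC and 607, 633 and 593 in shPRMT6. Its fall to 82.5% of NC (log2 fold change -0.28 ± 0.06 SE, edgeR adjusted p = 0.0213) lost the call when any library other than NC replicate 2 was left out.

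The other lysyl oxidases did not pass. LOX, the founding member of the family, had 1599, 1478 and 1391 CPM in NC and 1212, 1462 and 1267 in shPRMT6, so that the groups overlapped (log2 fold change -0.18 ± 0.09 SE, edgeR adjusted p = 0.206). LOXL1, LOXL3 and LOXL4 averaged 66.0 ± 7.32, 110 ± 4.26 and 1.81 ± 0.25 CPM in NC and 55.2 ± 2.58, 101 ± 6.17 and 2.35 ± 0.25 in shPRMT6. PLOD2, the hydroxylase of collagen telopeptides, averaged 1139 ± 68.7 and 1061 ± 16.5 CPM. Whether the fall of LOXL2 differed from that of LOX was not tested. The CPM ratio of LOXL2 to LOX averaged 0.510 in NC and 0.417 in shPRMT6, and that of PLOD1 to PLOD2 0.653 and 0.576, with overlapping groups in the latter pair.

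Levels between genes can be compared only per length. By the deposited FPKM (counts scaled to gene length and to library size), averaged over the 6 libraries, the order was TNC (216), LOX (213), PLOD2 (121), FN1 (115), PLOD1 (107), TGFBI (102), LOXL2 (91.7), SPARC (85.2), LTBP1 (39.8) and FBN1 (31.7). The library values of TNC and LOX overlapped, at 241 ± 12.7 and 226 ± 13.6 FPKM in NC and 190 ± 4.10 and 200 ± 19.8 in shPRMT6 (SD, n = 3). PLOD1 and TGFBI also overlapped, at 117 ± 6.71 and 107 ± 14.0 FPKM in NC. FN1 stood at 143 ± 15.7 FPKM in NC and 86.9 ± 2.21 in shPRMT6, and SPARC at 63.1 ± 3.26 and 107 ± 1.31, so by this measure FN1 was above SPARC in NC and below it in shPRMT6. The order depends on the length used. Per kilobase of the longest annotated transcript, FN1 stayed above SPARC in shPRMT6, at 193 ± 4.59 against 159 ± 1.68 CPM per kilobase. On that scale PLOD2 moved to rank 2, LOX to rank 3 and LTBP1 to rank 10, while TNC kept the first place.

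**Figure D3:**
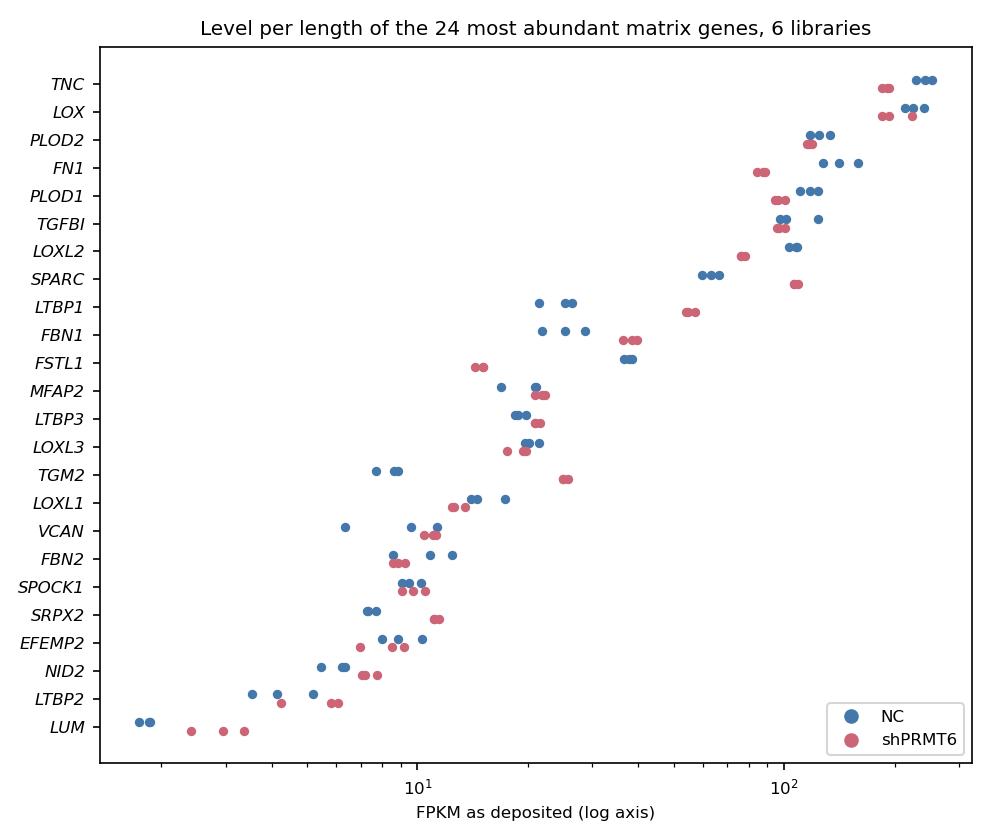
Deposited FPKM (log axis) of the 24 members with the highest means, in 3 NC and 3 shPRMT6 libraries each. On this scale, and not per kilobase of the longest transcript, FN1 crosses from above SPARC in NC to below it in shPRMT6. TGM2 moves from 8.39 to 25.2 FPKM on average.

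By count, the 40 genes together took 1.28% to 1.39% of all counts in NC and 1.151% to 1.183% in shPRMT6. Their summed level was 13422 ± 484 CPM in NC and 11729 ± 174 in shPRMT6 (SD, n = 3), a difference of -12.6%. The sum follows its most counted genes. Adhesive glycoproteins went from 7535 ± 408 to 5736 ± 57.9 CPM and crosslinking enzymes from 4384 ± 72.6 to 3924 ± 123, whereas microfibril and elastic fibre genes went from 1270 ± 88.4 to 1789 ± 38.6. These sums were made after the gene values were known and were not tested. They are sums of reads, and long genes weigh more in them.

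Several of the changed genes overlap another gene, and the library kit named in the labels does not mark strand, so reads from both strands of such a stretch cannot be told apart. On the opposite strand of TGM2, RPRD1B had 3221 to 4462 counts in NC and 3309 to 4005 in shPRMT6 and did not pass (log2 fold change -0.05). On that of SRPX2, SYTL4 had a log2 fold change of -0.36 and did not pass. AC090197.1, opposite LOXL2, fell from 256 to 441 counts in NC to 114 to 184 in shPRMT6 (log2 fold change -1.30, edgeR adjusted p = 0.0236), while ENTPD4, on the same strand, had 3277 to 5293 counts in NC and 4837 to 5606 in shPRMT6 and rose (log2 fold change 0.30, edgeR adjusted p = 0.0455). Of the 75-base stretches of LOXL2, 0.825% recur in other transcripts, mostly of ENTPD4. The part of either partner in the LOXL2 value was not tested. Overlapping partners of TNC, SPARC, LTBP1 and FSTL1 had at most 100 counts in a library. FN1, FBN1, LUM and PLOD1 overlap no annotated exon of another gene, and no stretch of 75 bases of these 4 genes recurs in another annotated transcript.

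Other genes of the matrix, in 3 lists made by function with earlier results known, gave the surroundings. Of all genes tested, 18.6% were called, 9.51% higher and 9.06% lower. Among those with a mean of at least 10 CPM, 27.1% were called. Among 68 other glycoproteins and proteoglycans, 39 were tested, 13 rose and 2 fell (38.5%), with a median log2 fold change of 0.32. By smallest p these were CCN3, a growth-regulating matricellular protein (25.8 ± 1.26 CPM in NC, 51.1 ± 1.20 in shPRMT6), TNXB (80.03 ± 7.87 and 165 ± 5.29), LTBP4 (87.8 ± 5.31 and 59.5 ± 0.70) and ABI3BP, a collagen-associated protein (31.5 ± 3.54 and 61.4 ± 7.64). LTBP4 thus fell where LTBP1 rose. TNXB has a near-identical pseudogene copy and an overlapping neighbour, so its value is uncertain.

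Among 34 other crosslinking, folding and glycosylating enzymes, with a median log2 fold change of -0.01, 30 were tested. Of these, 2 rose and 2 fell (13.3%, beside 18.6% of all genes tested). The 4 were XYLT1, which starts glycosaminoglycan chains (94.9 ± 5.05 CPM in NC, 67.3 ± 0.65 in shPRMT6), SUMF1, which activates sulfatases (55.7 ± 5.06 and 38.2 ± 3.13), POFUT2, which fucosylates thrombospondin repeats (56.4 ± 5.17 and 74.9 ± 6.0003), and COLGALT1, which glycosylates collagen (350 ± 18.0 and 410 ± 13.6).

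Of 37 matrix-processing proteases, their helpers and hyaluronan genes, 27 were tested, 7 rose and 5 fell (44.4%, beside 18.6% of all genes tested). The median log2 fold change was 0.17. The smallest p values belonged to ADAMTS12, a metalloproteinase (27.8 ± 2.31 CPM in NC, 58.4 ± 1.59 in shPRMT6), PCOLCE2, an enhancer of procollagen processing (55.3 ± 3.43 and 96.1 ± 2.09), HTRA1, a secreted serine protease (259 ± 20.7 and 421 ± 11.3), and ADAMTS4, which cleaves aggrecan and versican (14.7 ± 0.73 and 6.80 ± 0.84). The first 3 rose and ADAMTS4 fell (edgeR adjusted p = 0.00256 for ADAMTS4). Differences between the lists were not tested.

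**Figure D4:**
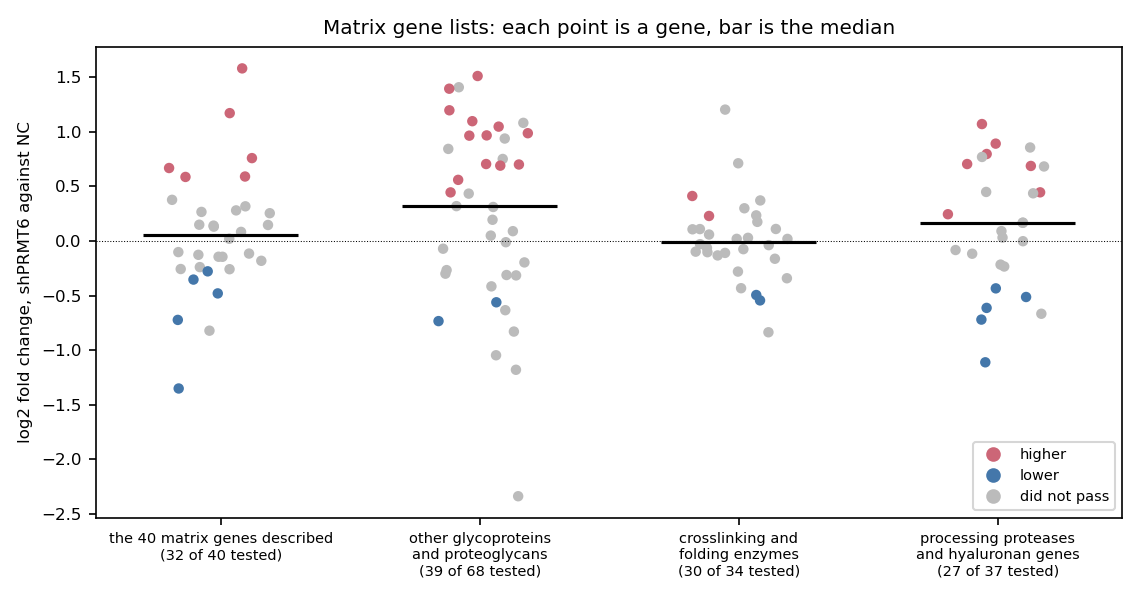
Log2 fold change of shPRMT6 against NC (vertical axis) for each tested gene of the 40 described and of the 3 other lists, with colours for the outcome of the edgeR test and a bar at the list's median. The medians are 0.05, 0.32, -0.01 and 0.17 from left to right, and every list holds genes that rose and genes that fell.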

How the data were processed

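Libraries were grouped by the titles of the samples. For 60612 genes, the authors deposited read counts without normalization and FPKM; the submitters' processing notes name HISAT2, HTSeq 0.13.5 and GRCh38 without their roles, and the tool behind the FPKM is not given in the sources used here. In the 26 members with enough counts to check, the deposited FPKM followed the counts over a length that varied by at most 0.88% (CV) between libraries, a median of 1.184 times the exon length in GENCODE 29, so they are no independent measure. Genes without counts were listed at an FPKM of 0.0001. The proteome of the study was not analysed here.

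For the main test, filterByExpr kept 18106 genes, TMM factors scaled the libraries, and the quasi-likelihood model of edgeR 4.0.16 (R 4.3.3) compared both groups, with Benjamini-Hochberg adjustment over those genes. Alternatives were other filters and scalings, DESeq2 1.42.0, limma 3.58.1 on log2(FPKM + 1) or log2(FPKM + 0.1), a replicate block, the study's threshold (absolute log2 fold change above 1 with unadjusted p under 0.05) and each library left out. The fits were tested on simulated data: edgeR and limma kept their false calls near the nominal share. DESeq2 made clearly more, through too many small p-values among unchanged genes with 3 libraries per group, and was exempted from that requirement; its calls are therefore not read as further support. The block fit also exceeded the nominal share, and missed more true changes, when dispersions varied between genes.

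Members and lists were chosen with earlier results of these data known. All members are named, those past the threshold with every library, and from each other list the 4 genes with the smallest p. That the replicates are independent rests on the methods text, and p-values measure the spread between these libraries. Pairs of replicates differed beyond counting error (chi-square per degree of freedom 53.0 to 86.3).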

Additional observations from a re-analysis of the deposited data

How the results depend on the processing

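Of the 11 calls, 9 held in each of the 9 alternative filters, scalings and tests and with each library left out. The alternatives include DESeq2, whose calls are not read as further support, and limma fits on FPKM, which is no independent measure. LUM and PLOD1 did not hold in all of these fits. LUM missed in the unfiltered limma fit on FPKM, and both missed with the replicate block (9 members called, 5 higher and 4 lower, beside 10.3% of all genes). NID2 gained the call in 4 alternatives. These were the filter of at least 10 counts in every library, DESeq2 and the limma fits with a mean FPKM of at least 1. FBN2 (-0.39, edgeR adjusted p = 0.0356) gained it without NC replicate 1. FBLN2, under the filter, passed without a count filter (12 members called, 7 higher) and without NC replicate 2. It missed in every other fit that gave it an adjusted p. Of the other 7 genes under the filter, POSTN had no count and 6 passed in no fit. Under the study's threshold 3 members passed (TGM2 and LTBP1 higher, FSTL1 lower; 2 and 1), of 1072 genes (596 higher, 476 lower), with 5, 1 and 2 in the lists of glycoproteins, enzymes and proteases. The replicate numbers did not pair the libraries (correlations of same-numbered deviations 0.03, -0.04 and -0.05); the block left 1858 genes (950 higher, 908 lower), with 2 enzymes and 6 proteases. Unfiltered, limma called 7 proteases. With single libraries left out, the counts ran from 1755 to 3183 genes (898 to 1661 higher, 857 to 1522 lower), 1 to 6 enzymes and 6 to 9 proteases. Most of these fits have fewer samples. PRMT6 missed the threshold in the unfiltered limma fit (-0.47, adjusted p = 0.0578), with the block (-0.88, 0.0803) and without NC replicate 1, shPRMT6 replicate 1 or 2 (values with each library left out -1.0004 to -0.73). Signs turned for members that passed in no fit, with ranges over the fits that leave out each library: SPOCK1 (-0.029 to 0.069), FSTL3 (-0.37 to 0.51), EMILIN1 (-0.58 to 0.89, and 0.26 with the block), BGN (-0.38 to 0.46), DCN (-0.053 to 0.27) and BCAN (-0.47 to 0.31). Unless named, the cause was not tested.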
